A study of Mus musculus with 6 samples.

Results

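Cholesterol synthesis, liver X receptor (LXR) and fatty acid genes were followed in cultured mouse myeloid-derived suppressor cells (MDSCs) after transfection of mitochondrial DNA (mtDNA). The 31 genes were chosen by symbol from a table of 55359 gene rows, and all 31 passed the expression filter that left 11190 genes for testing. They comprised 14 enzymes of cholesterol synthesis, 3 genes that control the pathway, 8 receptors, targets and effectors of LXR, 5 fatty acid enzymes and the lipid droplet gene Plin2.

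The mtDNA group held 3 RNA-seq libraries of cells transfected with mtDNA at 250 ng/ml using the lipid reagent spelled Lipofactamine 2000 in the labels, and sampled at 12 h. The blank group held 3 libraries that the labels call blank, without saying whether these cells were given the reagent, so DNA and reagent cannot be told apart. All cells came from C57BL/6 bone marrow grown for 4 days with 40 ng/ml of GM-CSF and the same dose of IL-6, followed by isolation of the polymorphonuclear (PMN) fraction with a kit. The labels used here state neither age nor number of mice, so p-values measure the spread between libraries, which may be technical.

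Totals ran from 4144481 to 4911103 counts in mtDNA and from 4018360 to 4796800 in blank libraries, so that a single read was worth 0.204 to 0.249 counts per 1000000 counts (CPM) before scaling; the CPM given below were scaled by TMM factors of 0.947 to 1.05. All 8 interferon-response genes that served as a check of the treatment rose, among them Ifit3 (log2 6.12 ± 0.18, SE; edgeR adjusted p = 2.67e-16) and Rsad2, which encodes viperin and stood at 657 ± 93.5 CPM in mtDNA and 10.5 ± 5.98 CPM in blank cultures (SD, n = 3 each). Genes of neutrophils and their precursors were abundant (Mmp8 at 2558 and 2545 CPM in mtDNA and blank cultures), but Ly6g, which defines mouse granulocytes, had 78 reads in mtDNA and 65 in blank libraries. Csf1r, the receptor that marks monocytes and macrophages, stood at 1552 ± 3.52 CPM in mtDNA and 1424 ± 16.0 CPM in blank cultures, and Cd74, an antigen-presentation gene, at 4259 ± 206 CPM in mtDNA and 4025 ± 218 CPM in blank cultures, so the libraries do not show a purely granulocytic culture. In bulk libraries such as these, fewer cells of a type and less RNA per cell cannot be told apart.

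Cells make cholesterol from acetyl-CoA through the mevalonate pathway. When sterols in the endoplasmic reticulum run low, the transcription factor SREBP2 is cleaved and switches on the enzymes of the pathway; when sterols are plentiful, INSIG proteins hold it back. Oxysterols, which are oxidised sterols, also block SREBP2 and activate LXR, which in macrophages drives cholesterol export through the transporters ABCA1 and ABCG1 and raises SREBP1, the regulator of fatty acid synthesis. Type I interferon is known to lower sterol synthesis in macrophages and to raise the enzyme cholesterol 25-hydroxylase.

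Of the 31 genes, 3 rose and 2 fell at an adjusted p under 0.05 (edgeR's quasi-likelihood test, Benjamini-Hochberg adjustment across the 11190). The rises were those of Plin2, Abcg1 and Hmgcs1, and the falls those of Scd2 and Fasn, each by less than 1.5-fold. Among all tested genes 11.9% rose and 5.98% fell, close to the 9.68% and 6.45% of the 31 genes, so the shares of calls do not set the genes apart. Upper-quartile scaling called 2 of the 31 higher and 7 lower, and unscaled library totals called 2 and 8. Both calls of falls and the calls of Plin2 and Abcg1 held under these scalings, whereas that of Hmgcs1 did not.

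The promoters of the called genes that have an entry in the RefSeq promoter table (build GRCm38.p6) are shown because the factors named above act through short DNA elements. Each line gives the 250 bases before the transcription start, 5′ to 3′ on the gene's strand. Capitals mark the sterol regulatory element searched for (TCACNCCAC), the NF-Y box (CCAAT, bound by a partner of SREBP) and the E-box (CACGTG), each on either strand. They come from chr13:119690101-119690350 on the plus strand (Hmgcs1), chr11:120824548-120824797 on the minus strand (Fasn) and chr4:86670060-86670309 on the minus strand (Plin2).
Hmgcs1: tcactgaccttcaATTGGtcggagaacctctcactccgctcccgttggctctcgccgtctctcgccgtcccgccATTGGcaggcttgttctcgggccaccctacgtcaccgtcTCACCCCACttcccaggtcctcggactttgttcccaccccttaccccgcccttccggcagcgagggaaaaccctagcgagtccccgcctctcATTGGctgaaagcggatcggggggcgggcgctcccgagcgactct
Fasn: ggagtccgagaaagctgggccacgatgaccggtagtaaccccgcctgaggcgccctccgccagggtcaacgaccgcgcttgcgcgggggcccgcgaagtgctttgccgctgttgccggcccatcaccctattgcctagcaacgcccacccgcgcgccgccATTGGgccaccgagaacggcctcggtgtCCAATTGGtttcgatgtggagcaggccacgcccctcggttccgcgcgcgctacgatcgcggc
Plin2: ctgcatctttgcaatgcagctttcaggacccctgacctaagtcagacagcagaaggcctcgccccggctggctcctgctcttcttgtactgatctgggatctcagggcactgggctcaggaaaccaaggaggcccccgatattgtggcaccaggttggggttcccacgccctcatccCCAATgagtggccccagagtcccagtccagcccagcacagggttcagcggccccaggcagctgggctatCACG

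The Hmgcs1 window held a sterol regulatory element whose first base lay 137 bases before the start, together with 3 NF-Y boxes. The Fasn window held 3 NF-Y boxes, of which those beginning 62 and 59 bases before the start overlap. In the Plin2 window the final 4 capitals open an E-box that runs across the start. Of the 31 genes 24 matched the table by symbol, and windows of 250 bases before to 50 after the start were searched in all of them. Sqle, Fdps, Fdft1, Stard4, Abcg1, Scd1 and Scd2 did not match and were not searched. Hmgcs1 was the 1 of the 24 searched whose window held the sterol regulatory element, against 1.44% of the 27025 genes in the table (1.24% of promoters). Sites that differ by a letter were not counted, so the search cannot tell whether other windows hold a variant of this element. NF-Y boxes were found for 18 of the 24, and for 12 of the 13 matched genes of cholesterol synthesis and its control, against 41.1% of all genes in the table. An LXR element (GGTCA, any 4 bases, then AGGTCA) and the core of an interferon-stimulated response element (GAAA, any 2 bases, then GAAA) matched in 0 of the 24 windows, against 0.0222% and 3.99% of all genes. This says only that these letters are not in these windows. The exact LXR letters matched in 6 of the 27025 genes, so the search cannot tell whether an LXR site with other letters is present. E-boxes were found for Sc5d, Dhcr7, Insig1, Abca1, Elovl5 and Plin2, against 8.09% of all genes.

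**Figure D1:**
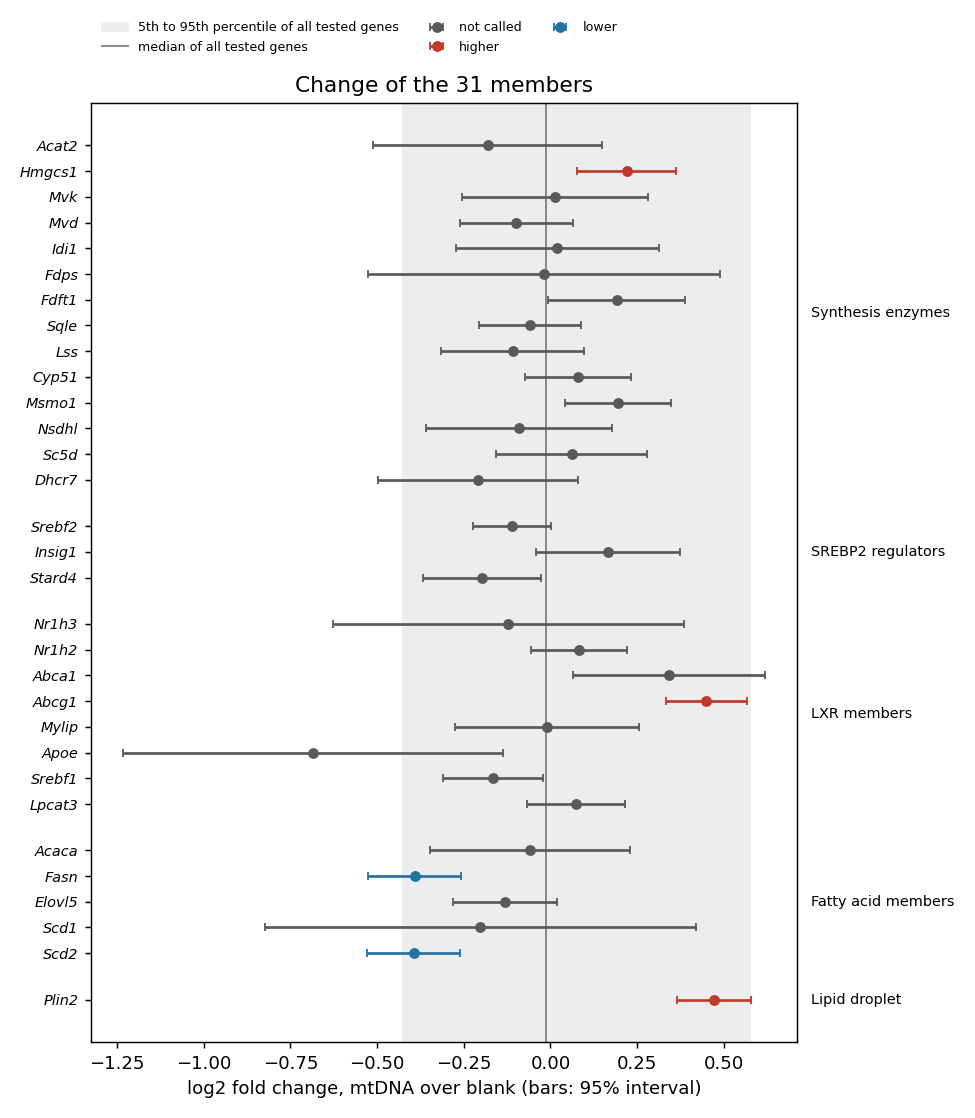
Log2 fold change of mtDNA over blank (horizontal axis) for the 31 genes grouped by role, with 95% intervals from edgeR that are not adjusted over genes. The grey band spans the 5th to 95th percentile of all tested genes (-0.43 to 0.57), and the vertical line their median (-0.01). Plin2, Abcg1 and Hmgcs1 were called higher, Fasn and Scd2 lower.

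At the median, the enzymes of cholesterol synthesis stayed near the level of blank cells (log2 fold change -0.00, beside -0.01 over all tested genes). Of the 14 enzymes 1 rose (7.14%) and 0 fell, beside 11.9% and 5.98% of all tested genes. These counts do not set the enzymes apart. Hmgcs1, which condenses acetyl units into HMG-CoA at the head of the pathway, had 119, 133 and 114 CPM in mtDNA libraries and 110, 102 and 103 CPM in blank libraries. Every mtDNA library was above every blank library, though mtDNA 3 exceeded blank 1 by little, and the rise was 1.17-fold (log2 0.22 ± 0.068, SE; edgeR adjusted p = 0.0285). The call of Hmgcs1 was lost in DESeq2 (adjusted p = 0.140), on unscaled library totals (0.285), on upper-quartile scaling (0.135), after removal of the GC trend (0.0552), against a fold of 1.2 (1), and without mtDNA 2 (0.191), blank 2 (0.0987) or blank 3 (0.104).

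The other 13 enzymes did not pass, and in all 13 the groups overlapped. Among all tested genes 17.9% had every mtDNA library above every blank library, and 15.6% had the reverse. Sqle, the squalene epoxidase that commits squalene to sterols, had 91.7, 104 and 102 CPM in mtDNA and 111, 103 and 96.0 CPM in blank libraries (log2 -0.06 ± 0.071, edgeR adjusted p = 0.641). Cyp51, the lanosterol demethylase, had 81.5, 87.4 and 79.4 CPM in mtDNA and 73.7, 76.9 and 84.8 CPM in blank libraries (edgeR adjusted p = 0.515). For both genes the spread within a group covered the difference between groups.

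Msmo1, a methyl sterol oxidase, came nearest to a call, with 85.6, 98.1 and 89.8 CPM in mtDNA and 85.7, 77.6 and 76.4 CPM in blank libraries (log2 0.19 ± 0.073, edgeR adjusted p = 0.072). Its lowest mtDNA value lay just under the highest blank value, and it passed without mtDNA 1 (adjusted p = 0.0499) or blank 1 (0.0423). The squalene synthase gene Fdft1 had a log2 fold change of 0.19 ± 0.094 (edgeR adjusted p = 0.184); 18.3% of its exonic bases lie opposite exons of the far more abundant Ctsb, and since the strand setting of the counts is not given, reads there are uncertain.

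Of the 5 uncalled enzymes with at least 1000 reads over the 6 libraries (Mvd, Fdft1, Sqle, Cyp51 and Msmo1), the 95% intervals lay between -0.26 and 0.39 on the log2 scale. Over all 13 uncalled enzymes they lay between -0.52 and 0.49, both outer bounds being those of Fdps, which had 91 reads in mtDNA and 93 in blank libraries. The mevalonate and isoprenoid steps gave log2 0.01 for Mvk (mevalonate kinase), -0.10 for Mvd (mevalonate diphosphate decarboxylase), 0.02 for Idi1 (isopentenyl diphosphate isomerase) and -0.02 for Fdps (farnesyl diphosphate synthase). The late sterol steps gave -0.11 for Lss (lanosterol synthase), -0.09 for Nsdhl (sterol dehydrogenase), 0.06 for Sc5d (sterol C5-desaturase) and -0.21 for Dhcr7, which makes the final reduction to cholesterol. These 8 changes were of either sign, none passed, and their edgeR adjusted p ran from 0.343 to 0.972.

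Acat2, which makes acetoacetyl-CoA, had log2 -0.18 ± 0.16 (edgeR adjusted p = 0.489). Several counts carry doubt: 40.7% of the read-length windows of Acat2 also occur in Acat3, 20.7% of those of Idi1 in the copy Gm13502, and 26.7% of the exonic bases of Fdps lie inside another annotated gene on the same strand. Fdps had the lowest level of the 14 enzymes per length, at 2.28 CPM per kb of its longest transcript in mtDNA and 2.30 in blank cultures. Hmgcs1 and Mvd had the highest levels per length, Hmgcs1 at 35.2 CPM per kb in mtDNA and 30.3 in blank cultures and Mvd at 32.1 in mtDNA and 34.2 in blank cultures, so their order differed between groups.

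The 3 genes that control the pathway did not pass. Srebf2, which encodes SREBP2, had 244, 261 and 247 CPM in mtDNA and 260, 281 and 272 CPM in blank libraries (log2 -0.11 ± 0.054, edgeR adjusted p = 0.176). The groups touched, with mtDNA 2 just above blank 1, and the difference was called on unscaled library totals (adjusted p = 0.00357) and on upper-quartile scaling (0.0166). Insig1, itself a target of SREBP2 and its brake, had log2 0.17 ± 0.100 (edgeR adjusted p = 0.288), with 36.8 CPM in blank 3 apart from 46.2 and 49.9 CPM in the other blank libraries and 47.5 to 51.2 CPM in mtDNA libraries. Stard4, a sterol carrier, had 51.4, 58.5 and 62.7 CPM in mtDNA and 67.6, 63.7 and 67.8 CPM in blank libraries. All mtDNA values lay below all blank values, yet the test gave an edgeR adjusted p of 0.103, and it passed on unscaled library totals (0.00748) and on upper-quartile scaling (0.0191). Over the 17 genes of synthesis and control the median log2 fold change was -0.02, with 8 above and 9 below 0. Their summed level was 989, 1064 and 1003 CPM in mtDNA and 1018, 1030 and 1004 CPM in blank libraries, with overlap.

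Among other genes of this pathway, from a separate list, Tmem97, a membrane protein regulated with the pathway, was lower (log2 -0.40 ± 0.12, edgeR adjusted p = 0.0241), a call lost in DESeq2 (adjusted p = 0.189) and without mtDNA 1 (0.105), blank 1 (0.0768) or blank 2 (0.0605). In all, 2 of the 10 tested genes of that list rose and 1 fell, beside the 11.9% and 5.98% of all tested genes. On upper-quartile scaling and on unscaled library totals these rises were not called. Of the 11 genes of sterol sensing and its control, 1 rose (9.09%) and 0 fell. It was Rnf139, an ubiquitin ligase of the endoplasmic reticulum, at 50.9, 46.1 and 53.1 CPM in mtDNA and 33.9, 33.7 and 35.3 CPM in blank libraries (log2 0.54 ± 0.092, edgeR adjusted p = 0.000139). Scap, which escorts SREBPs to their cleavage, and Insig2 had log2 -0.17 ± 0.095 and -0.11 ± 0.13 (edgeR adjusted p = 0.264 and 0.621). Scap passed on unscaled library totals (adjusted p = 0.0322).

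**Figure D2:**
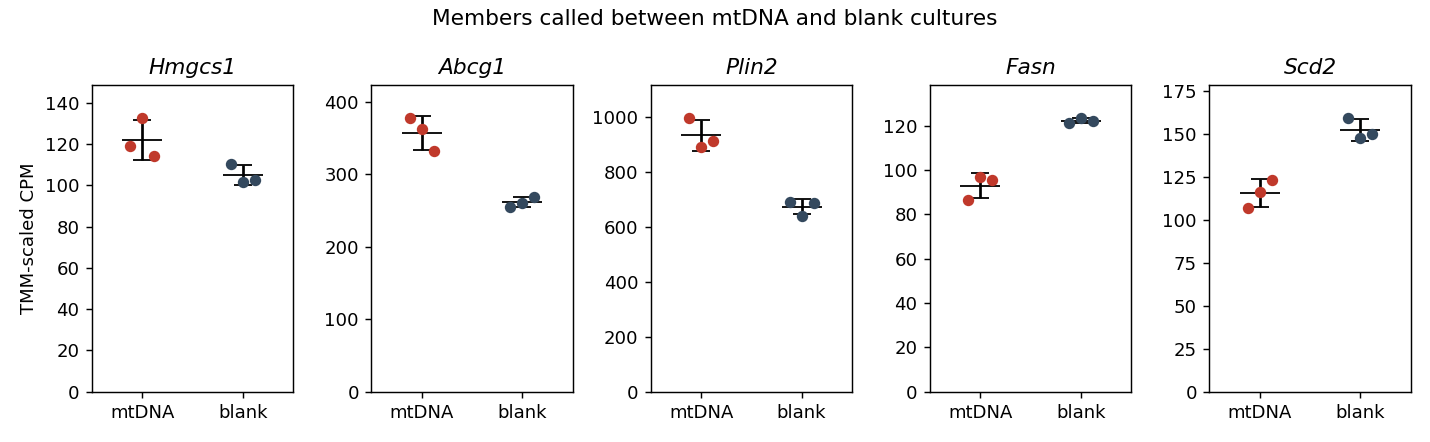
TMM-scaled CPM (vertical axis, from 0) of the 5 called genes in each mtDNA library (red) and blank library (dark blue). Bars give the mean and SD of 3 libraries per group. In each of the 5 panels the groups do not overlap; the smallest gap is that of Hmgcs1, with 114 CPM in mtDNA 3 and 110 CPM in blank 1.

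Of the 8 LXR genes 1 rose (12.5%) and 0 fell, beside 11.9% and 5.98% of all tested genes. The receptors themselves did not pass. Nr1h2, which encodes LXR beta, had 122, 107 and 110 CPM in mtDNA and 106, 109 and 103 CPM in blank libraries (edgeR adjusted p = 0.445). Nr1h3, which encodes LXR alpha, was thinly counted, with 70 reads in mtDNA and 77 in blank libraries (log2 -0.12 ± 0.24, edgeR adjusted p = 0.791). Per kb of transcript Nr1h2 stood at 56.4 CPM in mtDNA and 53.1 in blank cultures, and Nr1h3 at 2.67 and 2.88, so LXR beta was the far more abundant form in both.

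Among the exporters Abcg1, which moves cholesterol to high-density lipoprotein, rose 1.37-fold. It had 378, 362 and 332 CPM in mtDNA libraries and 255, 261 and 269 CPM in blank libraries (log2 0.45 ± 0.056, edgeR adjusted p = 2.4e-06), with no overlap between groups. The call held in all 16 alternatives, with log2 fold changes of 0.33 to 0.50. Abca1, which loads cholesterol onto apolipoprotein A-I, had 21.5, 28.1 and 25.4 CPM in mtDNA and 23.1, 18.8 and 17.7 CPM in blank libraries (log2 0.34 ± 0.13, edgeR adjusted p = 0.0824). Here mtDNA 1 fell among the blank values, and Abca1 passed without mtDNA 1 (adjusted p = 0.0416) or blank 1 (0.0357).

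None of the remaining LXR targets passed, and their fold changes were of either sign. Apoe, the apolipoprotein E gene, was low, with 3.32, 2.79 and 3.60 CPM in mtDNA and 4.71, 5.41 and 5.49 CPM in blank libraries, from 43 and 70 reads. All mtDNA values were below all blank values (log2 -0.68 ± 0.26, edgeR adjusted p = 0.0789), and Apoe passed on unscaled library totals (adjusted p = 0.0271) and on upper-quartile scaling (0.0423). Srebf1, an LXR target that encodes SREBP1, had 97.6, 96.0 and 93.6 CPM in mtDNA and 99.1, 106 and 117 CPM in blank libraries. Again no mtDNA value reached the blank values (log2 -0.17 ± 0.069, edgeR adjusted p = 0.11), and the difference was called on unscaled library totals (adjusted p = 0.00462) and on upper-quartile scaling (0.0153). Mylip, a ubiquitin ligase that limits lipoprotein uptake, had log2 -0.01 ± 0.13, and Lpcat3, a phospholipid-remodelling enzyme, 0.07 ± 0.068 (edgeR adjusted p = 0.967 and 0.514).

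The 8 LXR genes had a median log2 fold change of 0.03, with 4 above and 4 below 0. The median turned to -0.04 on upper-quartile scaling and -0.09 on unscaled library totals, and to -0.12 when Scd1, Scd2 and Fasn, which LXR also controls, were counted in. In the separate list of further LXR genes 3 of 9 tested rose and 0 fell, beside the 11.9% and 5.98% of all tested genes. Mertk, a receptor for the uptake of dying cells, had 64.9, 60.6 and 66.7 CPM in mtDNA and 29.4, 29.1 and 33.4 CPM in blank libraries (log2 1.07 ± 0.090, edgeR adjusted p = 5.91e-09). Lpl, which encodes lipoprotein lipase, had 2195, 2339 and 2710 CPM in mtDNA and 2015, 1662 and 2017 CPM in blank libraries (log2 0.35 ± 0.070, edgeR adjusted p = 0.000919). Both were separated between groups; the call of Lpl ended in DESeq2 (adjusted p = 0.0573).

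Ch25h, the cholesterol 25-hydroxylase that makes an oxysterol, rose from a low base, with 46 reads in mtDNA and 15 in blank libraries. It had 3.32, 2.999 and 4.02 CPM in mtDNA and 2.12, 1.00 and 0.239 CPM in blank libraries (log2 1.60 ± 0.44, edgeR adjusted p = 0.013). All mtDNA libraries were above all blank libraries, but the blank values differed widely, and the call ended without mtDNA 3 (adjusted p = 0.054), blank 2 (0.053) or blank 3 (0.0801). Of 4 tested oxysterol genes Ch25h was the 1 that rose, and 0 fell, beside the 11.9% and 5.98% of all tested genes.

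Of the 5 fatty acid genes 0 rose and 2 (Fasn and Scd2) fell, where 11.9% of all tested genes rose and 5.98% fell. All 5 had a negative log2 fold change in the fit of all 6 libraries, but Scd1 turned to 0.11 without blank 1, and Acaca to 0.0014 without mtDNA 2 and 0.017 without blank 3. The median was -0.20, which is the value of the thinly counted Scd1, beside -0.01 over all tested genes. It was -0.13 to -0.38 when each library was left out in turn. Their summed level was 315, 339 and 344 CPM in mtDNA and 412, 419 and 397 CPM in blank libraries, with no overlap. Fasn, the fatty acid synthase, had 86.4, 97.0 and 95.7 CPM in mtDNA and 121, 124 and 122 CPM in blank libraries. The blank values were nearly equal and lay well above all mtDNA values (log2 -0.39 ± 0.064, edgeR adjusted p = 0.000101). Scd2, a stearoyl-CoA desaturase, had 107, 116 and 123 CPM in mtDNA and 159, 148 and 150 CPM in blank libraries, again with no overlap (log2 -0.39 ± 0.064, edgeR adjusted p = 8.91e-05). The falls amounted to 0.762 of the blank level for Fasn and 0.761 for Scd2. Both held in all alternatives but the test against a fold of 1.2, where the adjusted p was 0.113 for Fasn and 0.104 for Scd2.

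The other fatty acid genes did not pass. Scd1, the paralog of Scd2, was nearly silent, with 50 reads in mtDNA and 58 in blank libraries, where Scd2 had 1544 and 2041 (Scd1 log2 -0.20 ± 0.30, edgeR adjusted p = 0.708). Scd1 shares 3.24% of its read-length windows with Scd2. Elovl5, an elongase of polyunsaturated fatty acids, had 102, 105 and 102 CPM in mtDNA and 110, 125 and 102 CPM in blank libraries (edgeR adjusted p = 0.243), and was called lower on unscaled library totals (adjusted p = 0.0143) and on upper-quartile scaling (0.0469). Acaca, the acetyl-CoA carboxylase, had log2 -0.06 ± 0.14 (edgeR adjusted p = 0.821); 47.4% of its windows also occur in other genes, chiefly the copy Gm5182.

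In the separate list of 13 tested fatty acid genes 0 rose and 2 fell. Over both sets 4 of 18 (22.2%) were lower and 0 higher, beside the 5.98% and 11.9% of all tested genes. These genes were chosen with earlier results of these data known, so the pooled share is a description and was not tested. Of the 13, 4 had a positive log2 fold change. The 2 that fell were Lpin1, a phosphatidate phosphatase (27.1, 31.1 and 34.3 CPM in mtDNA and 44.0, 36.3 and 38.2 CPM in blank libraries; log2 -0.35 ± 0.11, edgeR adjusted p = 0.031), and Fads1, the delta-5 desaturase (84.3, 90.2 and 88.1 CPM in mtDNA and 103, 103 and 96.9 CPM in blank libraries; log2 -0.20 ± 0.065, edgeR adjusted p = 0.0334). Both sets of values were separated, but neither call was firm. In DESeq2 the adjusted p was 0.169 for Lpin1 and 0.203 for Fads1. The call of Lpin1 ended in 4 of the 6 omissions of a library (adjusted p of 0.0629 to 0.149 without mtDNA 1, mtDNA 2, blank 1 or blank 3) and that of Fads1 in 5 (0.0514 to 0.1 without any library but blank 3). Acly, which supplies acetyl-CoA to fatty acid and sterol synthesis, had log2 0.05 ± 0.050 (edgeR adjusted p = 0.509).

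**Figure D3:**
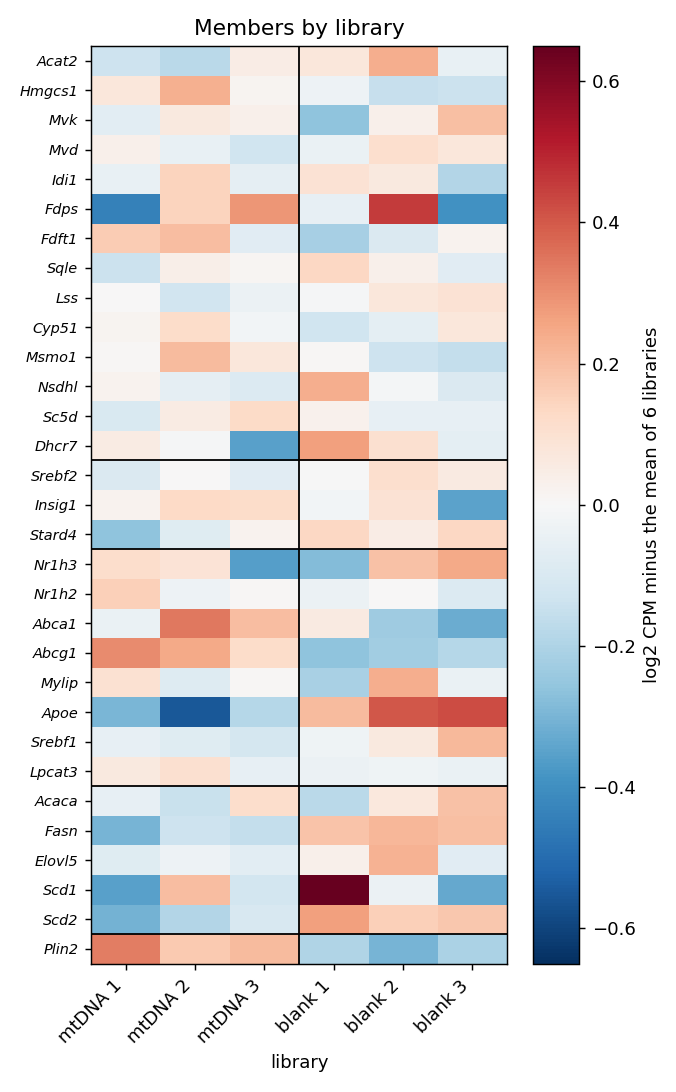
Log2 CPM of each of the 31 genes minus its mean over the 6 libraries (colour, red above and blue below the mean), with mtDNA libraries left of blank libraries and lines between the roles. Abcg1, Plin2, Hmgcs1, Msmo1 and Insig1 lie above their mean in all mtDNA libraries, in places by little. Fasn, Scd2, Apoe and Stard4 do so in all blank libraries. Most synthesis enzymes show no block.

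Plin2, which encodes the coat protein perilipin 2 of lipid droplets, showed the largest called change of the 31 genes. It had 997, 891 and 912 CPM in mtDNA and 690, 641 and 687 CPM in blank libraries, a rise of 1.39-fold (log2 0.47 ± 0.051, edgeR adjusted p = 3.28e-07). The groups were far apart relative to their spread, and the call held in all 16 alternatives, with log2 fold changes of 0.35 to 0.50. Plin2 also had the highest level of the 31 per length, at 494 CPM per kb in mtDNA and 356 in blank cultures, with Abcg1 at 61.2 in mtDNA and 44.8 in blank cultures.

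Genes that take up, store and move cholesterol rose in 5 of 15 tested cases and fell in 1, against the 11.9% and 5.98% of all genes. Stard3, a cholesterol carrier between late endosomes and the endoplasmic reticulum, had 138, 127 and 127 CPM in mtDNA and 66.9, 65.1 and 60.4 CPM in blank libraries (2.03-fold, edgeR adjusted p = 1.12e-10). Npc2, which hands lysosomal cholesterol onward, had 1239, 1035 and 1067 CPM in mtDNA and 647, 637 and 646 CPM in blank libraries (log2 0.79 ± 0.057, edgeR adjusted p = 3.52e-10). In both genes the groups were far apart relative to their spread. Gramd1a, which moves plasma membrane cholesterol inward, was lower (log2 -0.24 ± 0.067, edgeR adjusted p = 0.0137), but did not pass in DESeq2 (adjusted p = 0.117) or without mtDNA 2 (0.0731) or blank 2 (0.0682). Soat1, which esterifies cholesterol for storage, had log2 0.14 ± 0.049 (edgeR adjusted p = 0.0586) and Cd36, a fatty acid and lipoprotein receptor, 0.07 ± 0.059 (0.458). Soat1 passed in limma-voom (adjusted p = 0.039), without blank 1 (0.0382) and when libraries with adjacent title numbers were blocked (0.0409).

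Genes of lipid droplets and fatty acid oxidation rose in 3 of 20 tested cases (15%) and fell in 2 (10%), near the 11.9% and 5.98% of all tested genes. Acadl, a mitochondrial acyl-CoA dehydrogenase, had 183, 175 and 172 CPM in mtDNA and 108, 99.99 and 111 CPM in blank libraries (log2 0.73 ± 0.061, edgeR adjusted p = 4.6e-09), and Fabp5, a fatty acid binding protein, rose by log2 0.30 ± 0.059 (edgeR adjusted p = 0.00078). Angptl4, an inhibitor of lipoprotein lipase, was lower, with 7.41, 6.21 and 8.89 CPM in mtDNA and 15.1, 11.8 and 12.7 CPM in blank libraries (log2 -0.80 ± 0.18, edgeR adjusted p = 0.00344).

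**Figure D4:**
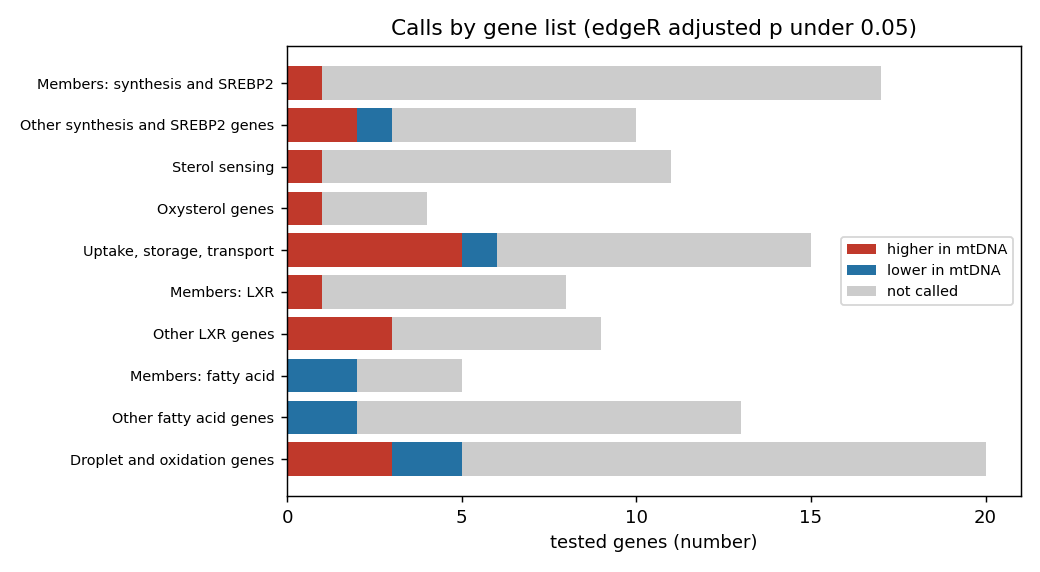
Number of tested genes called higher (red), called lower (blue) or not called (grey) in mtDNA against blank cultures, for the 3 main groups of the 31 genes and 7 further lists. Fatty acid lists hold blue calls and 0 red calls, and the list of uptake, storage and transport holds 5 red calls.

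Across the 3 groups, the medians were -0.02 for synthesis and SREBP2, 0.03 for LXR and -0.20 for fatty acid genes; the differences between them were not tested. Of the 26 uncalled genes, 23 had overlapping groups and 3 (Stard4, Apoe and Srebf1) lay wholly below blank. With these, 5 of the 31 had every mtDNA library below every blank library and 3 had the reverse, where 15.6% and 17.9% of all tested genes did.

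Some markers of cell types rose alongside these results. Of 12 monocyte and macrophage markers 6 rose and 0 fell, where 11.9% of all tested genes rose and 5.98% fell. Fcgr1, which interferon induces, was among the 6 risen markers, and none of the 12 was at 0. The summed level of the 12 was 4092 to 4271 CPM in mtDNA and 3522 to 3605 CPM in blank libraries. Fcgr1 alone made up 327 CPM of these sums in mtDNA and 56.4 CPM in blank cultures on average. The higher sum in mtDNA libraries accompanies the rises of Plin2, Abcg1, Mertk and Lpl, which macrophages express. Its part in those rises was not tested. Of 14 neutrophil and MDSC markers 2 rose (14.3%), with sums of 9639 to 10430 CPM in mtDNA and 8867 to 9301 CPM in blank libraries. Ly6c2, 1 of the 2, made up 968 CPM of these sums in mtDNA and 538 CPM in blank cultures on average. The other 12 were not called. Among tested markers 1 of 8 dendritic, 1 of 9 basophil, mast cell and eosinophil, 0 of 4 lymphocyte and 1 of 4 stromal genes rose, 0 of all these fell, and 0 of 6 erythroid markers were counted highly enough to test.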

How the data were processed

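Poly(A) RNA of 6 MDSC cultures was read from 1 end over 75 bases after a directional library kit, according to the labels' protocols. The authors deposited raw read counts per gene. The submitters' processing notes list STAR 2.7.10a, GRCm39, FastQC and DESeq2, and per the file headers the columns are STAR's per-gene output. The annotation release and the strand setting were not given in the sources used here. By design this output leaves out multiply mapped reads, so genes with close copies can lose reads.

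Gene IDs were paired with symbols from GENCODE M21 (GRCm38), which named 52083 of 55359; all 31 genes matched, and that annotation served for names, lengths, GC content, shared 75-base windows and overlaps. Groups came from the treatment label. edgeR 4.0.16 in R 4.3.3 was run with its default filter, TMM factors and the quasi-likelihood test (two-sided, threshold 0.05 on adjusted p); CPM are TMM-scaled, fold changes are mtDNA over blank, and standard errors come from the fold change and its F statistic. GC content was removed, in an alternative, by a loess trend through offsets. Other alternatives were other scalings and filters, DESeq2 1.42.0, limma-voom (limma 3.58.1), blocks of libraries with adjacent title numbers, a test against a fold of 1.2, other memberships of the groups, and omission of each library. Promoters are from RefSeq (GRCm38.p6), and a motif had to match every letter given.

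The members and lists were chosen with earlier results of these data known. Beyond the 31 genes, 9 genes were to be named whatever their result, and from each list up to 2 risen and 2 fallen genes with the smallest p; 3 of the genes so chosen are not reported here. Mmp8, Ly6g, Ly6c2, Csf1r, Cd74 and Fcgr1 were named after their values were seen. Counts were simulated for this comparison over 11190 genes, with far fewer genes changed than were called in the data. There edgeR's recovery was 20% for changes of 1.2-fold, 74% for 1.5-fold, 86% for 2-fold and 98% for 4-fold. Of its calls 2.8% were false, and most changes of 1.2-fold were missed. Because the adjusted threshold depends on the share of changed genes, these rates need not hold for the data.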

Additional observations from a re-analysis of the deposited data

How the results depend on the processing

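Over all tested genes 1327 were higher and 669 lower, so that 66.5% of calls were rises; upper-quartile factors gave 970 and 1504 (39.2%), library totals 861 and 2356 (26.8%), DESeq2 927 and 184 (83.4%) and the test against a fold of 1.2 590 and 55 (91.5%). Over all genes the median log2 change was -0.01 with TMM factors, -0.09 with upper-quartile factors and -0.13 with library totals. Of the 31 genes 3 were higher and 2 lower; the lower count was 7 with upper-quartile factors, 8 with library totals and 0 in the test against a fold of 1.2. The genes added were Apoe, Elovl5, Srebf1, Srebf2 and Stard4, and with library totals also Mvd (adjusted p = 0.0442). The median of the synthesis and SREBP2 group became -0.0933 and -0.14 under these scalings, and that of the LXR group -0.0445 and -0.0872. These shifts are close to those of all genes. With TMM factors the LXR median was -0.12 once Scd1, Scd2 and Fasn were added, a change of membership and not of scaling.

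Leaving out each library in turn gave 1097 to 1191 higher and 410 to 522 lower genes in all (410 without blank 3, 437 without mtDNA 1), 2 to 5 higher and 2 lower among the 31, and medians of -0.0874 to 0.043 for synthesis and SREBP2, -0.0163 to 0.0925 for LXR and -0.38 to -0.13 for fatty acid genes. The 5 higher without mtDNA 1, and those without blank 1, include Abca1 and Msmo1. Over single genes and alternatives, 471 comparisons of the 31 genes kept their call or their lack of one, 10 lost and 15 gained a call. In 0 comparisons was a called change reversed, but some uncalled genes changed sign, among them Idi1, Mvk, Fdps and Mylip. The labels give the groups no shared replicate numbers; blocking libraries with adjacent title numbers, a pairing the labels do not state, gave 1387 higher and 747 lower genes and left the 5 calls in place. Genes under about 100 reads a group (Fdps, Nr1h3, Apoe, Scd1 and Ch25h) are limited by depth.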
